A study of Mus musculus with 9 samples.

Results

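Mt1, Mt2 and Mt3 are 3 of the 4 metallothionein genes of the mouse, and 3 of the 22337 genes measured by RNA-seq in retinas at postnatal day 28 (P28). They were picked by gene symbol. Metallothioneins are small, cysteine-rich proteins of the cytosol that bind zinc and copper and react with oxidants. Mt1 and Mt2 are made in most tissues, and their transcription rises with zinc, through the zinc-sensing factor MTF1, and also with glucocorticoids, with IL-6-type cytokines acting through STAT3, and with oxidative stress. In the retina they are best known from Müller glia and other non-neuronal cells. Mt3 is the brain form, made by neurons and astrocytes, and is far less responsive to metals. Mt4 belongs to stratified squamous epithelium.

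The study compared 3 groups of 3 libraries. WT retinas came from non-treated C57BL/6J mice. The other two groups were rd10 mice, which carry a missense mutation in Pde6b, the beta subunit of the rod phosphodiesterase, and lose their rods from the third week of life. These littermates had received 1 µl of normal saline (NS) or of extracellular vesicles from mesenchymal stem cells (MSC-EVs) into both eyes at P14 and again at P21. WT eyes were not injected, so NS differed from WT in genotype, origin of the mice and injection together, and these cannot be told apart. Nothing in the labels says how many retinas or mice went into a library, so p-values measure the spread between libraries only.

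Totals per library lay between 19491721 and 62532357 estimated counts, with MSC-EVs replicate 3 the deepest. The 11 rod markers examined summed to between 37000 and 40300 CPM (counts scaled to library size with TMM factors) in WT and to between 8940 and 11900 CPM in NS, so rod transcripts were present in all libraries and lower in rd10. Libraries differed in 1 further respect: the summed counts of 4 Y-linked genes were 4379 and 4421 in MSC-EVs replicates 1 and 2 and 7 to 23 in the other 7 libraries. Every pair of replicates differed by more than sampling noise.

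The 4 genes lie side by side on the plus strand of chromosome 8, within 43.1 kb. In the GENCODE M21 annotation of GRCm38, Mt4 stands at chr8:94137197-94139031, Mt3 at chr8:94152607-94154146, Mt2 at chr8:94172664-94173568 and Mt1 at chr8:94179082-94180327. Mt2 and Mt1 are separated by 5.5 kb and Mt3 and Mt2 by 18.5 kb. The first annotated transcript of each gene has 3 exons, and those of Mt1, Mt2 and Mt3 measure 549, 511 and 536 bases. Lengths worked back from the deposited counts and FPKM values were 549 to 553, 511 and 528 to 534 bases, so all 3 genes were read over transcripts of nearly equal length. No stretch of 50 bases in the transcripts of a member occurred, on the same strand, in a transcript of another gene. Opposite strands were not compared, so a second home was not excluded for reads whose strand is unknown. GENCODE places an antisense gene, Gm45774, over Mt2; it has no row among the measured genes, and the sources used here do not say whether strand was kept.

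The metal response element, the letters to which MTF1 binds, is shown here because the members differ in the number of matches near their RefSeq start. The 300 bases around the start site that RefSeq gives for each gene on GRCm38.p6, 250 before and 50 after, were searched on both strands for TGCACNC or TGCGCNC. Mt2 held 4 matches, Mt1 held 3, and Mt3 and Mt4 held 1 each. Of the 32851 RefSeq windows of that length, 25.7% held at least 1 match, 1.97% at least as many as Mt1 and 0.517% at least as many as Mt2. These windows were not matched for base content. G and C made up 58.8%, 67.6%, 54.8% and 60.4% of the 250 bases before Mt1, Mt2, Mt3 and Mt4. The stretches of Mt1 follow, with the matches in capitals.
Mt1, chr8:94179055-94179083: cggtcccgctgTGCACACtggcgctccag
Mt1, chr8:94179080-94179108: ccagggagctcTGCACTCcgcccgaaaag
Mt1, chr8:94179098-94179126: cgcccgaaaagTGCGCTCggctctgccaa
The last 2 of these matches begin 3 and 21 bases into the transcript as RefSeq starts it, which is 7 bases after the first GENCODE start, while the last GENCODE start of Mt1 lies 152 bases further on. The region ahead of that inner start is only partly covered by the window.

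For Mt2 the 250 bases before the RefSeq start carry 3 of its 4 matches, in capitals; the third and the fourth are on the minus strand, and the fourth begins 5 bases past the start. The RefSeq start of Mt2 lies 46 bases before the first GENCODE start and 242 bases before the last. The region ahead of that last start is only partly covered by the window.
Mt2, chr8:94172368-94172617: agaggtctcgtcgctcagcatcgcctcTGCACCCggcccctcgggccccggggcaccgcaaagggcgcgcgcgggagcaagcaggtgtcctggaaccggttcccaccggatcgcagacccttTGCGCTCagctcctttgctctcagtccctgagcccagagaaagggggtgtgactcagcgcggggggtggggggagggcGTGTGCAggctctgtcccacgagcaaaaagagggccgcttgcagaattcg
The same 250 bases before Mt3, shown for contrast, hold no match, and the single match of its window begins 28 bases past the start. The last GENCODE start of Mt3 lies 139 bases past the RefSeq start, and the region ahead of it is also only partly covered.
Mt3, chr8:94152357-94152606: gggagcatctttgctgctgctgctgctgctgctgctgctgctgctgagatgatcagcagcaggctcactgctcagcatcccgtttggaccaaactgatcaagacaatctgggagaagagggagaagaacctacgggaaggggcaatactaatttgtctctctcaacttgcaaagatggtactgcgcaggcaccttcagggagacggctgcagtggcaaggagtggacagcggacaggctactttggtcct

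Letters of 3 other elements were looked for in the same windows. The antioxidant response element, TGACNNNGC, had 1 match in Mt2 and none in the other 3, and 12.4% of all windows held it. The core of the glucocorticoid response element, ACANNNTGT, had 1 match in Mt1 and none in the others, against 6.85% of all windows. The STAT element, TTCNNNGAA, was in none of the 4 windows and in 8.3% of all. These are matches of letters in a short window and not measured binding sites.

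The first comparison asked how the rd10 retina differed from the WT retina. All 3 members were higher in NS-treated rd10 mice than in WT mice, Mt2 by about 24-fold, Mt1 by about 12-fold and Mt3 by 2.5-fold. Together they rose from a summed 94.88 to 108.5 CPM in the WT libraries to 1489 to 1832 CPM in the NS libraries. In a bulk retina, a change in the number of cells that make a transcript and a change in transcript per cell cannot be told apart.

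In WT retinas Mt2 was measured at 42.3, 38.3 and 38.9 CPM in replicates 1, 2 and 3. In NS-treated rd10 retinas it was measured at 881, 955 and 1050 CPM. Every NS library lay far above every WT library. The log2 fold change was 4.59 (SE 0.08, 95% interval 4.42 to 4.77), a 24.1-fold rise (21.4 to 27.2), with a Benjamini-Hochberg adjusted p of 2.77e-12 by edgeR's quasi-likelihood test over 14644 genes.

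Mt1 stood at 60, 51.2 and 58.7 CPM in the WT libraries. The NS libraries read 593, 651 and 769 CPM. Here too the groups lay far apart. The log2 fold change was 3.57 (SE 0.10, interval 3.34 to 3.79), an 11.8-fold rise (10.2 to 13.8), with an adjusted p of 1.26e-09 in the same fit.

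Mt3 was by far the scarcest of the 3, at 6.28, 5.42 and 4.01 CPM in WT. In NS it stood at 15.1, 11.9 and 12.3 CPM. The lowest NS library remained above the highest WT library. These values rest on 80 to 140 estimated counts per WT library and 243 to 447 per NS library. The log2 fold change was 1.32 (SE 0.16, interval 0.96 to 1.68), a 2.5-fold rise, with an adjusted p of 2.59e-05 by the same test.

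**Figure D1:**
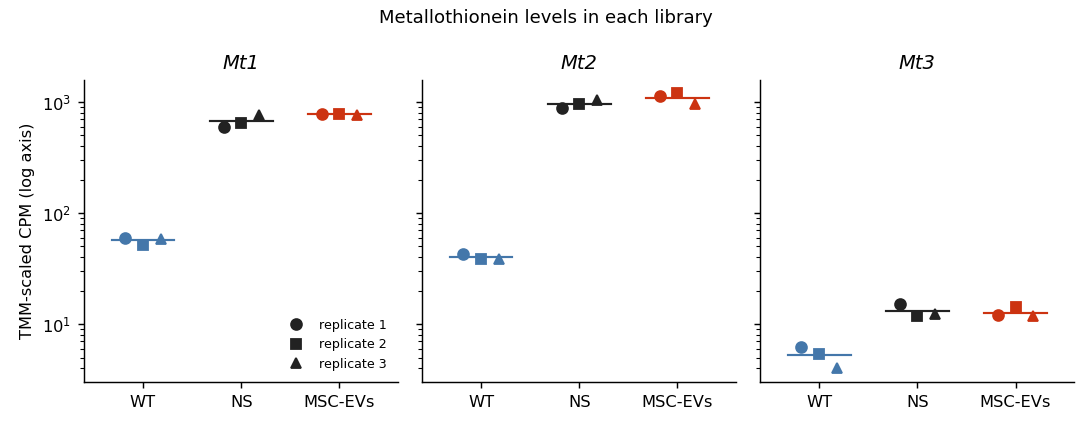
TMM-scaled CPM (counts scaled to library size) of Mt1, Mt2 and Mt3 on a log axis; each point is 1 library, its shape gives the replicate number, and the bars are means of 3 libraries. Both rd10 groups lie above WT for all 3 genes, by far the most for Mt2 (39.8 CPM in WT, 962 in NS and 1100 in MSC-EVs), and the rd10 groups overlap each other in all 3.

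The rise of all 3 members has to be read against a retina in which much had changed. In this comparison 31.2% of the tested genes were called higher (adjusted p under 0.05) and 30.1% lower, and 9.16% were higher with a log2 fold change of at least 1, as all 3 members were. A call alone was therefore common, and the size of the change was less so. Ranked by log2 fold change, Mt2 was 84th and Mt1 193rd of the 14644 genes, whereas Mt3 was 1009th. None of the 83 genes above Mt2 was as abundant in NS as Mt2 was: the highest, Serpina3n, an acute-phase protease inhibitor made by reactive astrocytes, stood at 471 CPM. Of the 192 genes above Mt1 the only more abundant gene was Mt2. The median log2 fold change over all tested genes was 0.005.

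Levels between genes are compared here on the FPKM scale, which divides by transcript length. In WT the order was Mt1, Mt2, Mt3, with 95.04 ± 7.4, 72.02 ± 3.73 and 9.123 ± 2 FPKM (mean ± SD, n = 3). In NS the order was Mt2, Mt1, Mt3, with 1972 ± 188, 1271 ± 179 and 25.84 ± 3.27 FPKM. Mt2 thereby went from between the 734th and 832nd most abundant gene of a library to the 12th or 13th, and Mt1 from between the 513th and 622nd to between the 18th and 24th. Mt3 moved from between the 6291st and 8088th to between the 2652nd and 3507th.

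The balance within the family changed with the level. The ratio of Mt2 to Mt1 in FPKM was 0.76, 0.806 and 0.713 in the WT libraries. It was 1.61, 1.59 and 1.48 in the NS libraries. Mt1 was ahead in every WT library and Mt2 in every NS library, and the difference of the means, 0.798, compares with SDs of 0.0466 and 0.0703. An exact two-sided permutation test over libraries gave p = 0.1, the smallest that 3 against 3 can give. Mt2 made up 40.9% ± 1.08 of the summed FPKM in WT and 60.4% ± 1.01 in NS (SD, n = 3), while the share of Mt3 was 5.17% ± 1.03 in WT and 0.803% ± 0.181 in NS.

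**Figure D2:**
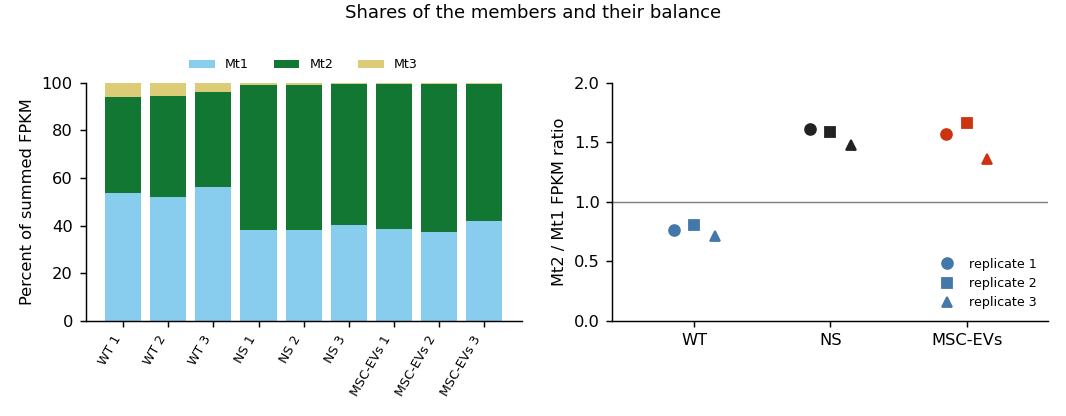
Left, percent of the summed FPKM contributed by each member in each of the 9 libraries; right, the ratio of Mt2 to Mt1 in FPKM, with 1 point per library and equality as the grey line. WT libraries lie below equality (0.713 to 0.806) and all 6 rd10 libraries above it (1.36 to 1.66).

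The second comparison asked whether MSC-EVs changed the rd10 retina. No member passed the edgeR test between MSC-EVs-treated and NS-treated rd10 mice, in which 0.914% of 14765 tested genes were called higher and 0.251% lower. Mt1 alone had an unadjusted p under 0.05, and DESeq2 called 0 of the 3 as well. The intervals were narrow for Mt1 and Mt2 and placed any difference well below that between rd10 and WT.

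Mt1 read 783, 778 and 754 CPM in the MSC-EVs libraries, against the 593, 651 and 769 of NS. Only the highest NS library reached into the MSC-EVs range. The log2 fold change was 0.20 (SE 0.09, interval 0.00 to 0.41), with an adjusted p of 0.24 in the edgeR fit (unadjusted, 0.047). The interval runs from no change to 1.33-fold higher.

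Mt2 read 1140, 1190 and 952 CPM in the MSC-EVs libraries. MSC-EVs replicate 3 lay below 2 of the 3 NS libraries and the other 2 MSC-EVs libraries above all of them. The log2 fold change was 0.19 (SE 0.10, interval −0.03 to 0.41, adjusted p = 0.305 in the edgeR fit). MSC-EVs replicate 3 is also the library without the Y-linked counts of replicates 1 and 2. With Y-linked expression as a covariate the log2 fold change of Mt2 was −0.01 (adjusted p = 0.96), and without that library it was 0.28 (adjusted p = 0.127), both by edgeR. Only MSC-EVs replicate 3 shares the low Y-linked counts of NS and WT. In every fit with this covariate the treated side therefore rests in effect on that library alone.

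Mt3 read 12, 14.2 and 11.9 CPM in the MSC-EVs libraries, wholly within the NS range. The log2 fold change was −0.05 (SE 0.13, interval −0.34 to 0.25, adjusted p = 0.876 in the edgeR fit), and 0.07 without NS replicate 1, the NS library highest in Mt3. The ratio of Mt2 to Mt1 was 1.57, 1.66 and 1.36 in the MSC-EVs libraries and lay on both sides of the NS values (exact two-sided permutation p = 0.8).

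Against WT, the MSC-EVs group gave values much like those of NS, for each of the members. These comparisons share libraries, so they are set side by side and do not support each other. The log2 fold changes of MSC-EVs over WT were 4.79 for Mt2 (SE 0.10, adjusted p = 5.92e-09), 3.77 for Mt1 (SE 0.07, adjusted p = 9.31e-10) and 1.28 for Mt3 (SE 0.17, adjusted p = 0.000163) by edgeR. These are rises of 27.7-fold, 13.7-fold and 2.42-fold. In this comparison 28.3% of 14623 genes were called higher, 27.2% lower and 9% higher with a log2 fold change of at least 1. The FPKM means in MSC-EVs were 2221 ± 276 for Mt2, 1449 ± 40.7 for Mt1 and 24.68 ± 2.64 for Mt3 (SD, n = 3), again in the order seen in NS.

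**Figure D3:**
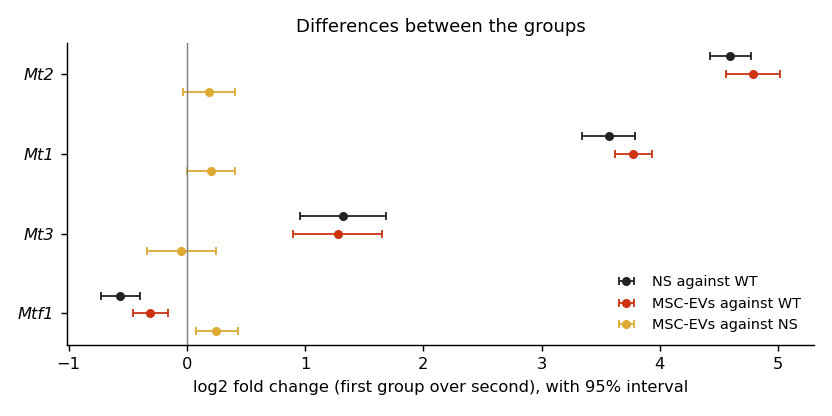
Log2 fold changes of the 3 members and of Mtf1, with 95% intervals, in the 3 comparisons of 3 libraries against 3. The intervals of Mt1, Mt2 and Mt3 against WT lie wholly above 0 in both rd10 groups, while between MSC-EVs and NS those of Mt2 and Mt3 span 0 and that of Mt1 starts at it.

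Mt4, the remaining gene of the family, had 0 counts in all 9 libraries. A count of 0 allows up to 3 counts per library, or 0.048 to 0.154 CPM unscaled, so Mt4 was not detected at this depth. Keratin genes of the cornea and conjunctiva, tissue that would carry stratified epithelium, were close to 0 as well: the 5 on that list summed to at most 1.45 CPM in any library.

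The genes on the flanks of the cluster were not raised as the members were. These 7 neighbours, whose bodies reach within 200 kb of the cluster, were listed after the members' values had been seen. Of the 6 that were tested between NS and WT, 1 was called higher, 1 lower and 4 neither, beside 31.2% higher and 30.1% lower over all tested genes. Bbs2, a subunit of the BBSome that serves protein transport in photoreceptor cilia, lies nearest upstream and fell (log2 fold change −1.05, SE 0.06, adjusted p = 3.5e-08 by edgeR). Gnao1, a G-protein alpha subunit of ON bipolar cells and other neurons, rose by 0.31 on the log2 scale (SE 0.06, adjusted p = 0.00089). Nup93, the nearest gene downstream, had −0.14 (SE 0.09, adjusted p = 0.175).

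**Figure D4:**
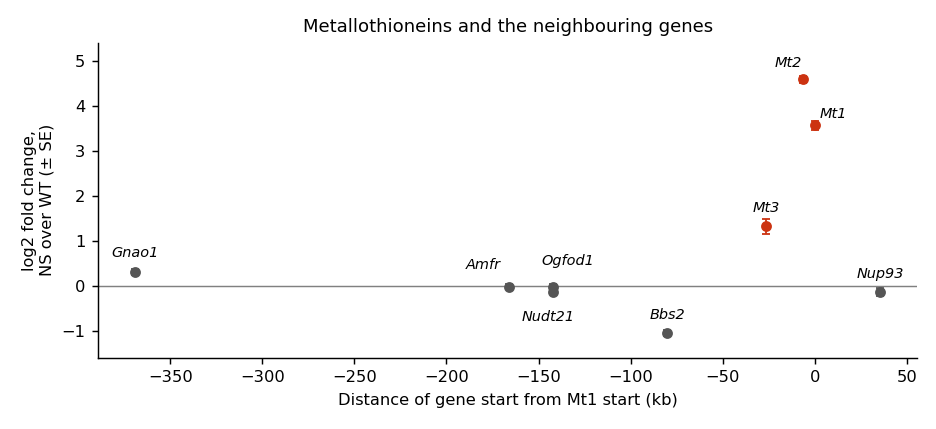
Log2 fold change of NS over WT, with its SE, against the distance in kb of each gene's start from the start of Mt1, for the members (red) and the tested genes around them (grey). The members stand at 1.32, 3.57 and 4.59 and the 6 neighbours between −1.05 and 0.31.

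Among the genes that sense and move zinc, no log2 fold change between NS and WT reached those of Mt1 and Mt2, and the importer Slc39a1 (1.22) came near that of Mt3 (1.32). Mtf1, whose product drives Mt1 and Mt2 when zinc rises, was lower in rd10: 58.3, 65.8 and 59.3 CPM in WT against 44.7, 38.5 and 40.4 in NS. Its groups did not overlap, and its log2 fold change was −0.57 (SE 0.08, adjusted p = 4.62e-05 by edgeR). Mtf1 stood at 48.3, 48.1 and 50.7 CPM in MSC-EVs, which was above NS by 0.25 on the log2 scale without passing the test (adjusted p = 0.124). Of the 10 tested genes on the list of this sensor and the zinc exporters, 1 was higher in NS, 4 were lower and 5 were not called. Their median log2 fold change was −0.15, and over all tested genes 31.2% were called higher and 30.1% lower. DESeq2 called 3 of the 10 lower. With limma on log2(FPKM + 1), 2 were higher and 0 lower, with a median of 0.03, so Mtf1 was not called lower there. In the edgeR fit the single gene that rose was Slc30a1, the zinc exporter of the plasma membrane and, like Mt1, a target of MTF1, at 51.3, 51.6 and 52.6 CPM in WT and 73.6, 84.5 and 72 in NS. Its log2 fold change was 0.56 (SE 0.07, adjusted p = 2.26e-05). In MSC-EVs the same gene spread over 53.9, 76.9 and 33.3 CPM, a range that takes in WT and part of NS, and no difference from either passed the test (adjusted p = 0.437 against NS and 0.865 against WT, by edgeR). Mt2 was likewise highest in MSC-EVs replicate 2 and lowest in replicate 3 (1190 and 952 CPM), while Mt1 lay within 754 to 783 CPM.

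Among 13 tested zinc importers 5 were higher in NS than in WT, 2 lower and 6 not called, with a median of −0.02. The 5 became 3 without WT replicate 1, WT replicate 2 or NS replicate 1, and with DESeq2. Slc39a1, an importer of the plasma membrane, had the only log2 fold change of at least 1 (1.22, SE 0.07, adjusted p = 3.69e-08 by edgeR). Of 13 genes of copper handling, Mtf1 being counted in this list too, 1 was higher, 5 were lower and 7 were not called, with a median of −0.11. With limma on log2(FPKM + 1), 2 were higher and 3 lower, with a median of 0.09. Slc31a2, a copper transporter of endosomes and lysosomes, fell most (log2 fold change −1.0, SE 0.07, adjusted p = 1.1e-07). These calls stand beside 31.2% higher and 30.1% lower over all genes. Between MSC-EVs and NS, where 0.914% of all tested genes were called higher and 0.251% lower, edgeR called 0 genes of the 3 lists. Their medians were 0.02, 0.03 and −0.15. At an unadjusted p under 0.05 there were 3, 0 and 5, and DESeq2 called 0, 0 and 2. With edgeR, 1 importer was called higher without MSC-EVs replicate 2, 1 copper gene higher without NS replicate 1, and 1 gene of the first list lower with the Y-linked covariate. In the copper list the fit of all 9 libraries called 1 higher and 1 lower. A fit with the replicate number as a block called 1 copper gene higher, and limma on log2(FPKM + 1) called 2 lower. The smallest adjusted p-values were 0.124 for Mtf1, 0.375 for Slc39a14, another zinc importer, and 0.0657 for Sod1, the copper-zinc superoxide dismutase (log2 fold change −0.30, SE 0.07). In MSC-EVs against WT, 28.3% of all tested genes were called higher and 27.2% lower. The first list had 0 higher and 4 lower of 10 there, the second 4 and 1 of 13, and the third 1 and 8 of 13. The 4 lower genes of the first list became 1 when any of the WT libraries or MSC-EVs replicates 1 or 2 was left out, and the 8 of the third became 5 or 6 when any 1 library was left out. Slc39a1 (1.25) and Slc39a4 (1.01) were the importers called with a log2 fold change of at least 1 there, and Atp7b, a copper-exporting ATPase, was the copper gene that fell by as much (−1.10).

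Of the pathways known to induce Mt1 and Mt2, 3 were examined as gene lists. Their counts stand beside 31.2% called higher and 30.1% called lower over all genes tested between NS and WT. The list of IL-6-family cytokines, their receptors and STAT3 targets held 17 tested genes, of which 15 were higher in NS, 1 lower and 1 not called. Its median log2 fold change was 2.73, against 0.005 over all genes. The largest rises were those of Lcn2 (5.35, SE 0.61), a secreted siderophore-binding protein, and Serpina3n (5.33, SE 0.09), followed by Socs3 (4.18), which shuts off cytokine receptors, the cytokine Lif (4.10), the receptor chain Il6ra (3.31) and the transcription factor Cebpd (3.14). These 6 all passed the edgeR test. Il6 and Osm themselves were too low to be tested, with means of 0.217 and 0.621 CPM in NS.

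Calls in the glucocorticoid list went both ways, beside 31.2% higher and 30.1% lower over all tested genes. All 13 tested genes of that list were called by edgeR, 9 higher and 4 lower, with a median of 0.37. DESeq2 called 8 higher and 4 lower, and limma on log2(FPKM + 1) called 9 higher and 2 lower. With any 1 library left out, edgeR called 7 to 9 higher and 4 or 5 lower. Plin4 (3.36), a lipid-droplet coat protein, Zbtb16 (2.04), a zinc-finger repressor, Pdk4 (1.41), a kinase of pyruvate dehydrogenase, and Fkbp5 (1.00), a co-chaperone of the glucocorticoid receptor, rose, while Sgk1, a kinase, fell by 1.01 on the log2 scale. The NRF2 list of oxidative-stress genes had 9 of 12 higher, 2 lower and 1 not called, with a median of 0.53. The 2 lower became 1 when any library other than NS replicate 2 was left out. Osgin1 (3.76), Hmox1, the inducible heme oxygenase (2.84), Slc7a11, the cystine carrier (1.83), and Nqo1, a quinone reductase (1.40), were the members at or above a log2 fold change of 1.

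Between MSC-EVs and NS, edgeR called 0 genes of the glucocorticoid and NRF2 lists, with medians of −0.18 and 0.04, and so did DESeq2. At an unadjusted p under 0.05 there were 1 and 2. Without MSC-EVs replicate 2 edgeR called 1 gene lower in each list, without MSC-EVs replicate 3 it called 1 NRF2 gene higher, and the fit of all 9 libraries called 1 glucocorticoid gene lower and 1 NRF2 gene higher. The smallest adjusted p-values there were 0.106 for Tsc22d3 (log2 fold change −0.27) and 0.109 for Txnrd1 (0.27). In the IL-6 and STAT3 list 3 of 17 genes were higher and none lower, beside 0.914% higher and 0.251% lower over all tested genes. The median of the list was 0.27. Il6st, the shared receptor chain gp130, had the smallest adjusted p of this list (log2 fold change 0.68, SE 0.08, adjusted p = 0.015 by edgeR), at 230, 204 and 221 CPM in NS and 359, 316 and 374 in MSC-EVs. Osmr (0.79, SE 0.09, adjusted p = 0.0156) and Stat3 (0.54, SE 0.08, adjusted p = 0.0252) were the other two, named after their values were seen. None of the 3 passed when NS replicate 3 was left out, nor when MSC-EVs replicate 1 was (edgeR adjusted p from 0.0525 to 0.162, log2 fold changes from 0.54 to 0.90), and without MSC-EVs replicate 2 the list had 4 higher and 2 lower. DESeq2 called 6 of the list higher. With Y-linked expression as a covariate Il6st and Osmr passed and Stat3 did not (adjusted p = 0.0669 by edgeR). In MSC-EVs against WT, 28.3% of all tested genes were called higher and 27.2% lower. The IL-6 list had 15 higher and 1 lower of 17 there. The glucocorticoid list had 4 higher and 3 lower of 14, close to those shares, and the NRF2 list 8 higher and 2 lower of 12. The medians were 2.25, 0.03 and 0.70. The gene lower in the IL-6 list was no longer called without WT replicates 2 or 3 or MSC-EVs replicates 1 or 2, and the 2 of the NRF2 list became 1 when any 1 library was left out. The largest log2 fold changes among those called were 5.83 for Lcn2, 3.02 for Plin4 and 3.29 for Osgin1.

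**Figure D5:**
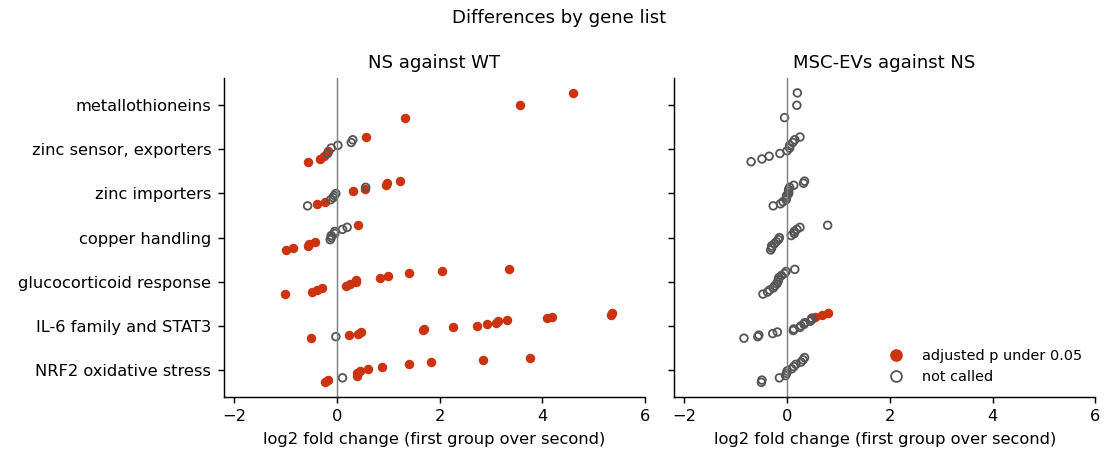
Log2 fold change of every tested gene of the metallothionein family and of 6 further gene lists, NS over WT on the left and MSC-EVs over NS on the right; filled points passed the edgeR test at an adjusted p under 0.05. On the left Mt1 and Mt2, at 3.57 and 4.59, lie far to the right of every zinc and copper gene (largest 1.22) and within the range of the IL-6 list. Mt1 also lies within the range of the NRF2 list, below Osgin1, and a little above Plin4, the largest of the glucocorticoid list. On the right only 3 genes, all of the IL-6 list, are filled.

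Cell-type markers moved with the members, and their part in the result was not tested. Over all tested genes, 31.2% were called higher in NS than in WT and 30.1% lower. Of 12 Müller glia markers 10 were higher in NS than in WT and 2 were not called, with a median log2 fold change of 0.83 and a largest value of 2.85 for Crym. Their summed level was 4790 to 5120 CPM in WT and 6140 to 6880 in NS. Glul, the glutamine synthetase of Müller glia, stood at 2730 ± 107 CPM in WT and 2680 ± 517 in NS (SD, n = 3; adjusted p = 0.853 by edgeR). The astrocyte list had 4 of 6 higher and 1 lower (0 lower without WT replicate 2, WT replicate 3 or NS replicate 1), with Gfap, the filament protein of astrocytes and of reactive Müller glia, up by 2.67 on the log2 scale. All 13 microglia and macrophage markers were higher, with a median of 3.54 and a summed level of 45.9 to 49.6 CPM in WT and 359 to 453 CPM in NS. Their defining marker Aif1 rose by 3.80. All 11 rod markers examined were lower, with a median log2 fold change of −1.77. All 9 markers of endothelium and pericytes were higher, with a median of 0.55.

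Markers of tissues next to the retina, and of blood, were also examined. Over all genes tested between NS and WT, 31.2% were called higher and 30.1% lower. The 8 markers of the pigment epithelium summed to 40.8 to 73 CPM in WT and 56.9 to 224 CPM in NS, with 3 called higher (0 without WT replicate 1, 7 without NS replicate 2 and 1 when any of the other 4 libraries was left out) and Rpe65, which regenerates the visual chromophore there, not called (adjusted p = 0.524 by edgeR). Rpe65 was 19.6, 3.33 and 13.9 CPM in NS replicates 1, 2 and 3. Of 6 lens markers edgeR and DESeq2 called 0, none at an unadjusted p under 0.05 either. Without WT replicate 2 edgeR called 1 of them higher, and without NS replicate 3 it called 1 lower, with medians of 0.46 and −0.68 against −0.51 with all libraries. Of 5 erythrocyte genes 1 was lower (0 without WT replicate 1 or NS replicate 2, 2 without WT replicate 3 or NS replicate 3). Between MSC-EVs and NS, edgeR called 0.914% of all tested genes higher and 0.251% lower. It called 0 of the 11 rod, 13 microglia, 6 astrocyte, 8 pigment epithelium, 9 endothelium, 5 lens and 5 erythrocyte markers tested. DESeq2 called 1 of them, an astrocyte marker, and the unadjusted p was under 0.05 for 1, 0, 3, 1, 1, 0 and 0. With the Y-linked covariate 10 of the 13 microglia markers had an unadjusted p under 0.05 and their median was −0.57, against 0.02 without it, and none was called. In that fit the treated side rests in effect on MSC-EVs replicate 3 alone. Without MSC-EVs replicate 2 edgeR called 1 rod and 1 astrocyte marker lower. With all libraries edgeR called 2 of 12 Müller glia markers lower in MSC-EVs than in NS, Hes1 and Car14, named after their values were seen. The summed levels of the 12 were 5190 to 5610 CPM in MSC-EVs and 6140 to 6880 in NS. Glul, which was not called, was the largest part of these sums, at 1860, 1710 and 2130 CPM in MSC-EVs and 3080, 2090 and 2860 in NS. The median log2 fold change of the 12 was −0.17. DESeq2 called 4 of the 12 lower, and 6 had an unadjusted p under 0.05 by edgeR. Without MSC-EVs replicate 2 edgeR called 3 lower. Neither Hes1 nor Car14 passed without NS replicate 3, without MSC-EVs replicate 1 or with the Y-linked covariate. In MSC-EVs against WT, 28.3% of all tested genes were called higher and 27.2% lower. There 8 of the 12 Müller markers were higher and 1 lower, 13 of 13 microglia markers higher and 11 of 11 rod markers lower. The 8 became 5 without WT replicate 3 or with the Y-linked covariate.

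The genes whose level over the 9 libraries was most like that of each member were picked by the Pearson correlation of log2(CPM + 1), over 13827 genes with a mean of at least 1 CPM. The values are descriptions, since the 9 libraries fall into WT and rd10 and any gene that differs between these will correlate. For Mt1 the nearest gene was Mt2 (r = 0.9988, Spearman's coefficient 0.967), followed by Pbxip1, Clu, Fcgr3 and Serpina3n (r from 0.9981 down to 0.9963). For Mt2 it was Pbxip1 (r = 0.9993, Spearman's coefficient 0.95), followed by Mt1, Clu, Litaf and Serpina3n (r down to 0.9977). Clu encodes clusterin, a secreted chaperone, Fcgr3 an Fc receptor of myeloid cells, and Litaf a protein of the endosomal membrane. Of the 5 genes nearest to each, 3 were common to both: Pbxip1, Clu and Serpina3n.

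Mt3 kept other company. Its nearest genes were Pcdh7, a protocadherin of neurons (r = 0.9963, Spearman's coefficient 0.933), Adora1, the adenosine A1 receptor (r = 0.9961, Spearman's coefficient 0.95), Ajap1, Slc35f1 and Rab11fip4 (r down to 0.9899). These 5 genes rose between WT and NS by 0.54 to 0.97 on the log2 scale, less than Mt3 itself. Mt1 and Mt2 were 520th and 302nd in likeness to Mt3, at r = 0.9476 and 0.9567. Within the 6 rd10 libraries alone, NS and MSC-EVs pooled, r was 0.817 between Mt1 and Mt2. It was −0.464 between Mt3 and Mt1 and −0.115 between Mt3 and Mt2. Mt3 lay between 11.9 and 15.1 CPM in these libraries, on 243 to 762 estimated counts each. Correlations over 6 libraries are imprecise, and whether Mt3 is regulated apart from Mt1 and Mt2 was not tested.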

How the data were processed

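RNA-seq libraries of whole retina, 3 per group, were analysed from 1 table. The authors deposited estimated counts per gene and library, not scaled to depth and with decimals in 9.16% to 11.7% of genes. Beside each, the authors deposited an FPKM value, normalized for length and depth. The submitters' processing notes name fastp, Bowtie2, HISAT2, StringTie 1.3.1 and RSEM; which one made which column, and the genome build, are not given in the sources used here. Messenger RNA was selected with oligo(dT) beads. Positions were matched by gene identifier.

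Counts were rounded to whole numbers, and edgeR 4.0.16 under R 4.3.3 was run on the 6 libraries of each pair of groups (filterByExpr, TMM, robust glmQLFit, glmQLFTest); p-values were adjusted over all tested genes by Benjamini-Hochberg. The SE is the log2 fold change divided by the square root of F. CPM values use TMM factors over all 9 libraries. Permutation tests used scipy 1.17.1. The test was tried before use on simulated counts in which few genes were changed and all had the same spread. That setting is narrower than the broad difference between NS and WT, so no result here rests on the trial. Alternatives used DESeq2 1.42.0, limma 3.58.1 on log2(FPKM + 1) and log2(FPKM + 0.1), other filters and scalings, and each library left out.

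The members and gene lists were chosen with earlier results of these data known. Genes named were the family, Mtf1, in each zinc, copper or inducer list the called genes whose log2 fold change was 1 or more in size (at most 6) or else that with the smallest adjusted p, 5 cell markers (1 of them, a rod marker, is not reported here), and the 5 genes most like each member; any other gene is an example from its list.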

Additional observations from a re-analysis of the deposited data

How the results depend on the processing

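Mt1, Mt2 and Mt3 kept their direction and their adjusted p under 0.05 in NS against WT and in MSC-EVs against WT under every alternative run. Over these, NS against WT ranged from 3.46 to 3.73 for Mt1, 4.53 to 4.77 for Mt2 and 1.17 to 1.51 for Mt3 (log2), and MSC-EVs against WT from 3.71 to 3.93, 4.58 to 4.94 and 1.12 to 1.44. Between MSC-EVs and NS no alternative brought a member past the threshold (lowest adjusted p 0.184 for Mt1, 0.127 for Mt2 and 0.603 for Mt3). The sign of Mt2 turned with Y-linked expression as a covariate (−0.01), a fit in which the treated side rests in effect on MSC-EVs replicate 3 alone. Leaving out 1 library gave −0.13 to 0.07 for Mt3, positive only without NS replicate 1, and −1.3 to 1.05 percentage points for the Mt2 share of the summed counts, positive only without MSC-EVs replicate 3; the cause was not tested. The summed members' log2 difference from WT was 4.01 in NS and 4.21 in MSC-EVs by CPM, and 4.21 and 4.39 by FPKM.

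The number of genes called between MSC-EVs and NS was 172, but 930 with DESeq2's Wald test and 1026 in a fit of all 9 libraries. Without 1 library it ran from 0 (without NS replicate 3, or MSC-EVs replicate 1) to 676 (without MSC-EVs replicate 2), with 32 without NS replicate 2. In the fits with 0 calls 1991 and 2052 genes had an unadjusted p under 0.05. Replicate numbers are shared between groups, but nothing in the labels says that they pair mice. Same-numbered libraries correlated in their deviations from the group means at 0.085 to 0.266 between NS and MSC-EVs, where each library correlated best with its own number, and at −0.083 to 0.104 between WT and NS. With the replicate number as a block, 403 genes were called between MSC-EVs and NS, and Mt1, Mt2 and Mt3 gave 3.56, 4.59 and 1.33 in NS against WT. Counts for the gene lists under these alternatives were added after the data had been seen. Mt3, with 80 to 140 counts per WT library, is the member whose fold is least precise.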
